A study of Homo sapiens with 6 samples.

Results

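Tetraspanins are membrane proteins with 4 membrane-spanning segments and a large extracellular loop. The human family was taken as every gene symbol made of TSPAN and a number, together with CD9, CD37, CD53, CD63, CD81, CD82, CD151, PRPH2, ROM1, UPK1A and UPK1B, which gave 33 of the 60609 genes in the count files. Stranded poly(A) RNA-seq read counts per gene were available for 6 libraries of K562, an established human leukaemia line with erythroid and megakaryocytic features. In all 6 libraries both copies of endogenous EP400, the motor subunit of the TIP60 chromatin remodeling and acetyltransferase complex, carried a C-terminal FKBP12-F36V-2xHA degron tag, and the cells were given 500 nM dTAGV-1, the degrader of the tagged protein, for 24 h. In 3 libraries (WT) the cells also expressed wild-type EP400 from the AAVS1 safe harbor locus, and in the other 3 (Delta-TRRAP) they expressed EP400 without the segment that recruits TRRAP. The comparison asks which transcripts differ when TIP60 lacks TRRAP. The replicates are described as biological, but each line was 1 clone, so clone and genotype cannot be told apart and the p-values measure only the spread between these libraries.

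Tetraspanins act mostly by organising other proteins. They associate with each other and with integrins, immunoglobulin-domain proteins and membrane proteases in the plane of the membrane, and they steer the traffic of these partners through the cell. The TspanC8 subgroup, named for the cysteines of its large loop, binds the protease ADAM10, takes it out of the endoplasmic reticulum and influences which substrates it cuts. CD63 marks late endosomes and exosomes, CD37 and CD53 are best known from leukocytes, PRPH2 and ROM1 shape photoreceptor discs, and UPK1A and UPK1B build the plaques of the urothelium.

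The library totals were 39966818 to 42616061 counts for WT and 35076835 to 38491513 for Delta-TRRAP, and 25668 to 25998 genes against 27928 to 28033 genes had a count. The erythroid markers of K562 were present in every library, with summed normalized counts between 220304 and 222482 in WT and between 145969 and 149543 in Delta-TRRAP. TFRC, the transferrin receptor, carried most of that sum. The labels also call the line a lymphoblast, but the B cell marker MS4A1 had no count in any library, and the 7 lymphoid markers summed to between 496 and 511 in WT and between 416 and 450 in Delta-TRRAP. The sum of 9 fibroblast markers lay between 35.9 and 58.5 in WT and between 908 and 953 in Delta-TRRAP, mostly from COL1A2 (1.63 against 868 normalized counts). By the rule given below, COL1A2 and PDGFRB (5 against 28 reads) were called higher, and COL1A1 and DCN were not called. COL3A1 had 2 reads in WT and 28 in Delta-TRRAP and was not tested. LUM and PDGFRA had no count in any library. The part of these differences in the tetraspanin results was not tested. EP400 itself, whose count adds the tagged gene and the transgene and so does not check the labels, stood at 5100 ± 282 normalized counts in WT and 5520 ± 1172 in Delta-TRRAP (SD, n = 3).

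Of the 33 genes, 31 had a count and 26 had a mean normalized count of at least 5, the minimum for testing. Normalized counts are counts scaled by TMM, which sets libraries to a common level by the bulk of their genes. A gene was called changed at an edgeR quasi-likelihood adjusted p of 0.01 or less together with a fold change of at least 2, and fold changes are Delta-TRRAP over WT throughout. By this rule 12 of the 26 tested tetraspanin genes were called (46.2%), beside 22.5% of all 19114 genes tested. 8 were called higher (30.8%, beside 16.2% of all genes), namely TSPAN5, TSPAN33, TSPAN15, TSPAN10, TSPAN6, TSPAN18, TSPAN7 and TSPAN9. 4 were called lower (15.4%, beside 6.34% of all genes), namely TSPAN13, TSPAN32, CD37 and PRPH2. TSPAN6, TSPAN15, TSPAN18 and PRPH2 passed the minimum only through the group in which they were high, and without them 8 of 22 were called. The 22.5% of all genes was not restricted in this way, so it is no background for the 8 of 22. By adjusted p alone, 14 tested members were higher and 7 lower, or 21 of 26, beside 58.6% of all genes. The 6 libraries separated into the WT and Delta-TRRAP groups without overlap for 21 of the 26 members (80.8%), beside 71.1% of all genes. The median log2 fold change was 0.44 over the tested members and 0.01 over all tested genes. In bulk RNA, fewer cells that express a gene and less RNA per cell cannot be told apart.

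**Figure D1:**
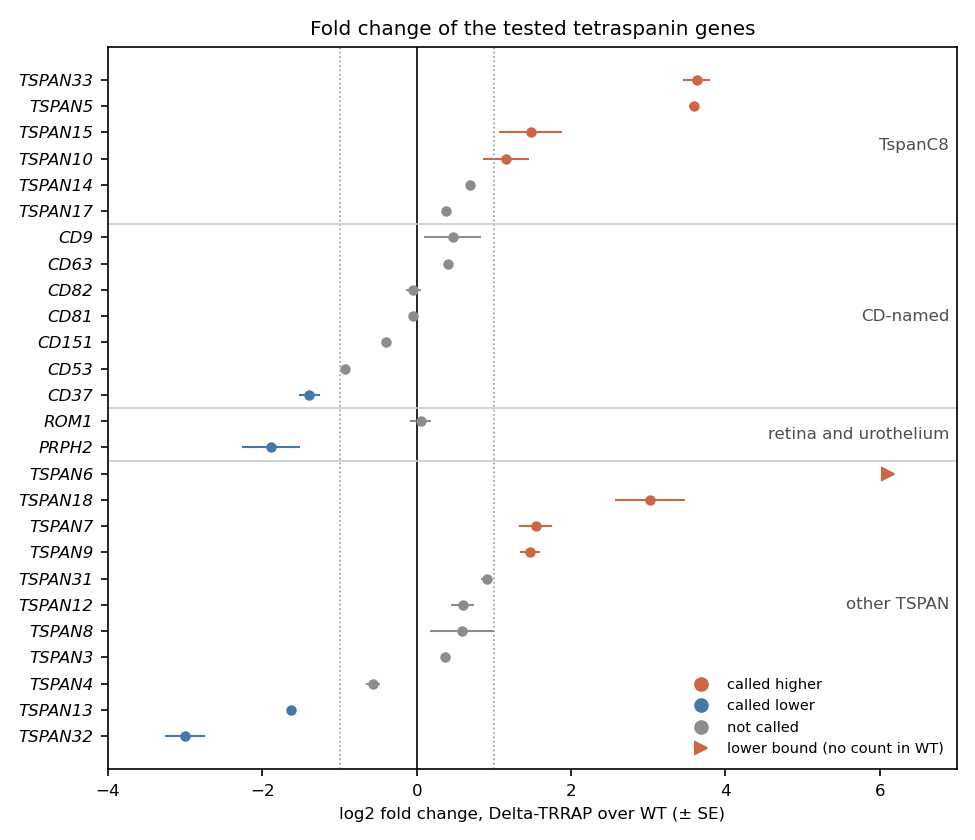
Log2 fold change (Delta-TRRAP over WT, x axis) of the 26 tested tetraspanin genes, grouped by role; bars are standard errors from edgeR and dotted lines mark a fold change of 2. The 6 TspanC8 genes all lie to the right of 0, and the triangle for TSPAN6 is a lower bound because no WT library held a count.

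The promoters of 4 genes are shown because these genes carried the clearest changes: TSPAN5 and TSPAN33 rose most among the TspanC8 genes, TSPAN6 had counts in one group only, and TSPAN13 was the highest tetraspanin transcript in WT. Each is a RefSeq window of 300 bases in GRCh38.p14, from 250 before to 50 after a start site, printed 5′ to 3′ on the strand of the gene with CpG dinucleotides in capitals. TSPAN5 is at chr4:98658562-98658861 on the minus strand, TSPAN33 at chr7:129144457-129144756 on the plus strand, TSPAN13 at chr7:16753505-16753804 on the plus strand, and TSPAN6, for the upstream of its 2 listed starts, at chrX:100637055-100637354 on the minus strand.
TSPAN5: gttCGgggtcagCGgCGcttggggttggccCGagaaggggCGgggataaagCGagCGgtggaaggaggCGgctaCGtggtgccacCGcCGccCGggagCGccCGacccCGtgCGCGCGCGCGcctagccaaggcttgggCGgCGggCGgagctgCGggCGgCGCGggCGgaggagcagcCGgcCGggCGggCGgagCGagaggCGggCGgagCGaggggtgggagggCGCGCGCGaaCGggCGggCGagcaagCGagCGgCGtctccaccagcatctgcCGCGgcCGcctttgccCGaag
TSPAN33: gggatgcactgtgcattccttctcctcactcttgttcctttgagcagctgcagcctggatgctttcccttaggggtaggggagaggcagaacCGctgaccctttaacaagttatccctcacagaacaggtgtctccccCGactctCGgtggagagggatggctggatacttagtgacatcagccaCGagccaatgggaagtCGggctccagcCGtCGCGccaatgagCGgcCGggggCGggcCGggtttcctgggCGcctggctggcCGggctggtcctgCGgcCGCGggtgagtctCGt
TSPAN13: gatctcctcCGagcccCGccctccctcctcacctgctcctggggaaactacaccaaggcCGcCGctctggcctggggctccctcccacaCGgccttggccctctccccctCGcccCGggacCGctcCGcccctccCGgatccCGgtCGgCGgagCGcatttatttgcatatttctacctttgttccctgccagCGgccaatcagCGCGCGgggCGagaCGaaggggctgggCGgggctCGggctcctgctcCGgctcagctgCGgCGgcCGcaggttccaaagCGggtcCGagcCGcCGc
TSPAN6: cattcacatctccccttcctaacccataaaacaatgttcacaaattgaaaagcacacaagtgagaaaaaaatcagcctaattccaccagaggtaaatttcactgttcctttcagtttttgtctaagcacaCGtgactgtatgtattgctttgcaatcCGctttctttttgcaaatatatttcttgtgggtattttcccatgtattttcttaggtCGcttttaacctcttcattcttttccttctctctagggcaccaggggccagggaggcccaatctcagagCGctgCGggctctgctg

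These windows differ in CpG content. The TSPAN5 window held 50 CpGs and a GC content of 78.3%, the TSPAN13 window 30, the TSPAN33 window 18 and the TSPAN6 window shown 5, with 12 at its other start. Over all 35116 windows the median was 14 CpGs, with quartiles of 4 and 28. Over the 45 windows of the 25 matched tetraspanin genes the median was 12. Of the other TspanC8 genes, TSPAN17 had 25 CpGs, TSPAN15 20 and TSPAN10 5, and the 3 TSPAN14 windows had 53, 3 and 4. A search of both strands for the E-box CACGTG, which is its own reverse complement, found it in 3 member windows, those of TSPAN6 (122 bases before the start shown), CD63 and TSPAN4 (6.67%, against 7.26% of all windows). The GATA motif AGATAA, bound by factors of the erythroid lineage, was found on either strand in the windows of PRPH2 and TSPAN12 only (4.44%, against 10.3% of all windows). A match of this kind describes letters and not a bound site.

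All 6 TspanC8 genes were higher in Delta-TRRAP by adjusted p (58.6% of all genes passed it in either direction), and 4 of them were called higher by the full rule (beside 16.2% of all genes). The groups did not overlap for any of the 6 (beside 71.1% of all genes), and TSPAN15 passed the minimum for testing only through Delta-TRRAP. Their median log2 fold change was 1.32. TSPAN5 (ENSG00000168785.8, chromosome 4, 98470367 to 98658611, GRCh38) is one of the ADAM10 carriers that influence Notch cleavage. Its normalized counts were 260.2, 275.9 and 268.9 in the WT libraries and 3298, 3285 and 3123 in the Delta-TRRAP libraries. Every Delta-TRRAP library was thus far above every WT library, a 12.1-fold rise from 268 ± 7.84 to 3236 ± 97.7 (SD, n = 3). The log2 fold change was 3.59 ± 0.06 (SE; edgeR adjusted p = 7.09e-16).

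TSPAN33 (ENSG00000158457.6, chromosome 7, 129144707 to 129169699), also called Penumbra and known from erythroid progenitors, rose from a low level. Normalized counts were 17.4, 20.3 and 13.3 in WT and 224.8, 188.1 and 225.0 in Delta-TRRAP. The groups did not overlap, and the mean rose 12.5-fold (log2 3.63 ± 0.17, edgeR adjusted p = 6.26e-11). TSPAN33 and TSPAN5 thus rose by similar factors from unequal starting levels. Of the erythroid markers, ALAS2 (log2 3.72 ± 0.06) and HBZ (2.87 ± 0.09) were called higher in the same libraries and TFRC lower (fell by 1.12 ± 0.05 on the log2 scale), and their relation to TSPAN33 was not tested.

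TSPAN14 and TSPAN17 were the TspanC8 genes with the most reads in WT, and both rose by less than the threshold of 2. TSPAN14 (chromosome 10, 80454265 to 80533124), a carrier of ADAM10 to the cell surface, had normalized counts of 2754, 2920 and 2946 in WT and 4769, 4717 and 4462 in Delta-TRRAP. TSPAN17 (chromosome 5, 176647387 to 176659054), the closest relative of TSPAN5, had 2046, 2098 and 1969 in WT and 2709, 2527 and 2708 in Delta-TRRAP. In both cases the lowest Delta-TRRAP library stood above the highest WT library. The log2 fold changes were 0.69 ± 0.05 for TSPAN14 (edgeR adjusted p = 9.52e-09) and 0.38 ± 0.05 for TSPAN17 (edgeR adjusted p = 9.80e-06), or 1.62-fold and 1.30-fold.

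The 2 remaining TspanC8 genes had very few reads. TSPAN15 (chromosome 10, 69451465 to 69507666), which directs ADAM10 to N-cadherin, had raw counts of 4, 3 and 7 in WT and 12, 13 and 15 in Delta-TRRAP (log2 1.48 ± 0.41, edgeR adjusted p = 0.00475). TSPAN10 (chromosome 17, 81637171 to 81648754), linked to pigmentation of the eye, had raw counts of 9, 10 and 7 in WT and 20, 22 and 17 in Delta-TRRAP (log2 1.16 ± 0.30, edgeR adjusted p = 0.00304). Both calls rest on fewer than 100 reads in all. DESeq2 did not call either gene (adjusted p = 0.0252 for TSPAN15 and 0.0232 for TSPAN10), and each lost its call in 3 of the 6 fits that left out 1 library.

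**Figure D2:**
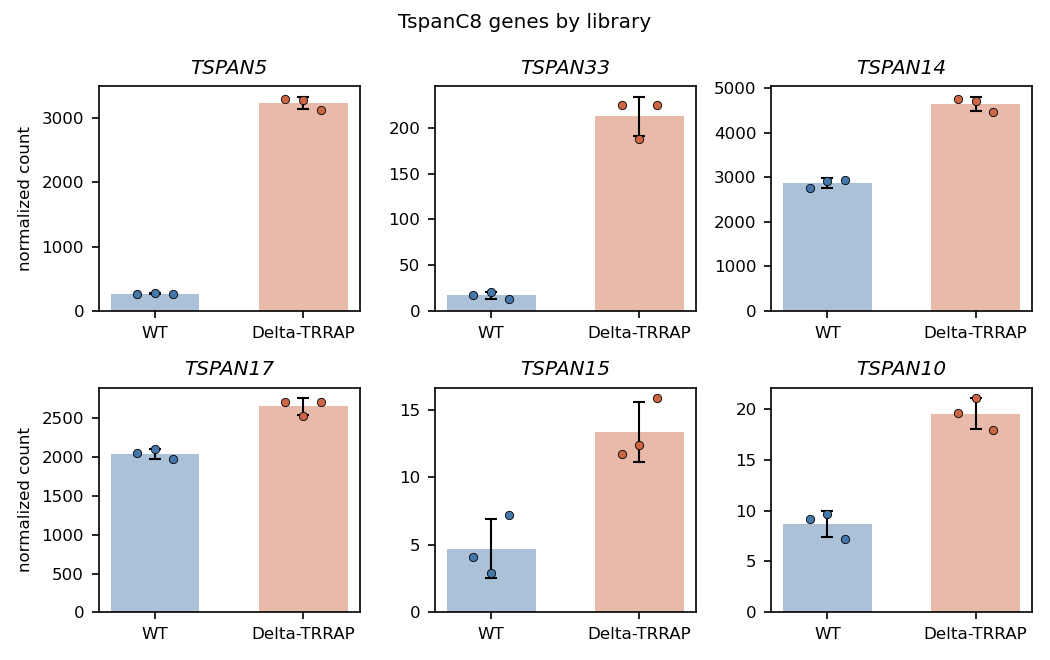
Normalized counts (y axis, a scale of its own in each panel, from 0) of the 6 TspanC8 genes in the 3 WT and 3 Delta-TRRAP libraries; points are libraries, bars are means and whiskers are SD. In each panel the 3 Delta-TRRAP points lie above the 3 WT points, with TSPAN5 going from 268 to 3236.

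The make-up of the TspanC8 transcripts shifted with these changes. Levels of different genes were compared as RPKM, the normalized count divided by the length of the merged exons and by library depth. The summed TspanC8 level was 15.3 ± 0.35 RPKM in WT and 32.8 ± 0.673 in Delta-TRRAP (SD, n = 3), a 2.14-fold difference. Within that sum TSPAN17 went from a mean of 65.5% to 39.8% and TSPAN14 from 27.1% to 20.5%. TSPAN5 went from 6.07% to 34.2% and TSPAN33 from 0.805% to 4.72%. On this scale TSPAN5 was below TSPAN17 and above TSPAN14 in Delta-TRRAP, and below both in WT. The order in Delta-TRRAP depends on the length used, since with the longest transcript TSPAN5 (20.5 RPKM) came above TSPAN17 (15.3) and TSPAN14 (7.37), and it stayed below both in WT (1.70, against 11.8 and 4.55). ADAM10, the shared partner, had 9212 ± 275 normalized counts in WT and 6823 ± 152 in Delta-TRRAP (fell by 0.43 ± 0.05 on the log2 scale, edgeR adjusted p = 1.16e-06, below the fold threshold).

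Of the 7 CD-named tetraspanins, all tested, 1 was called (14.3%, beside 22.5% of all genes), namely CD37, which was lower (beside 6.34% of all genes). By adjusted p alone CD63 was higher, CD37, CD53 and CD151 were lower, and CD9, CD81 and CD82 did not pass. The median log2 fold change of the 7 was -0.04. CD37 (chromosome 19, 49335171 to 49343335), a regulator of B cell signalling, had 217.2, 176.5 and 222.7 normalized counts in WT and 92.9, 67.8 and 73.9 in Delta-TRRAP. All Delta-TRRAP libraries were below all WT libraries, 2.63-fold on average (fell by 1.39 ± 0.14 on the log2 scale, edgeR adjusted p = 3.36e-07). CD53 (chromosome 1, 110871188 to 110899922), a leukocyte tetraspanin, had 3084, 2967 and 3105 in WT and 1703, 1560 and 1565 in Delta-TRRAP. CD53 thus fell in every library but by less than 2-fold (0.92 ± 0.05 on the log2 scale, edgeR adjusted p = 5.55e-10).

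CD63 (chromosome 12, 55725323 to 55729707) was the CD-named gene with the most reads. Its normalized counts were 6807, 7081 and 6474 in WT and 9306, 8414 and 9370 in Delta-TRRAP, with no overlap (log2 0.41 ± 0.06, edgeR adjusted p = 9.63e-06). CD151 (chromosome 11, 832887 to 839831), the partner of laminin-binding integrins, moved the other way. It had 2853, 2696 and 2574 in WT and 2216, 1994 and 1971 in Delta-TRRAP (fell by 0.39 ± 0.06 on the log2 scale, edgeR adjusted p = 2.42e-05). CD81 (chromosome 11, 2376177 to 2397802), a B cell co-receptor component and an entry receptor of hepatitis C virus, overlapped between the groups. It had 3976, 4059 and 4201 in WT and 3902, 3807 and 4153 in Delta-TRRAP (log2 fold change -0.05 ± 0.05, edgeR adjusted p = 0.451). CD82, known as a metastasis suppressor, also overlapped, at means of 237.5 and 230.3 (log2 fold change -0.04 ± 0.10, edgeR adjusted p = 0.705). Scaling by library size moved the median of all tested genes from 0.01 to 0.17 and turned both values positive (0.11 each), which relative to that median is -0.06 each. CD9 had few reads, with means of 8.38 and 11.7 (log2 0.47 ± 0.37, edgeR adjusted p = 0.279).

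Of the tissue-restricted members, PRPH2, UPK1A and UPK1B were near the floor. PRPH2 (chromosome 6, 42696598 to 42722597) was called lower, with 14.3, 14.5 and 16.4 normalized counts in WT and 3.91, 3.82 and 4.22 in Delta-TRRAP. The groups were separate, but only 45 and 12 reads lay behind them (fell by 1.89 ± 0.37 on the log2 scale, edgeR adjusted p = 0.000346). ROM1, the partner of PRPH2 in photoreceptors, overlapped between the groups at means of 108 and 113 (log2 0.05 ± 0.14, edgeR adjusted p = 0.761). UPK1A had 1 read over the WT libraries and 17 over the Delta-TRRAP libraries, and was below the minimum for testing. The ratio, scaled by TMM, was 16.8 with a 95% exact interval of 2.64 to 703, which covers counting error only. UPK1B had 1 read in all.

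The other 16 TSPAN genes held the extremes in both directions. 11 of them were tested and 6 were called, beside 22.5% of all genes. TSPAN6, TSPAN7, TSPAN9 and TSPAN18 were higher (4 of 11, beside 16.2%) and TSPAN13 and TSPAN32 lower (2 of 11, beside 6.34%), and TSPAN6 and TSPAN18 passed the minimum only through the group in which they were high. TSPAN6 (ENSG00000000003.15, chromosome X, 100627108 to 100639991), a regulator of antiviral signalling and of endosomal sorting, had no read in any WT library. Its normalized counts in Delta-TRRAP were 203.3, 191.0 and 226.0. Against a floor of 3 counts per library TSPAN6 was at least 68.9-fold higher in Delta-TRRAP (edgeR adjusted p = 5.05e-11).

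TSPAN13 (ENSG00000106537.8, chromosome 7, 16753755 to 16784536) was the tetraspanin with the most reads in WT. Its normalized counts were 10645, 10496 and 10022 in WT and 3432, 3205 and 3480 in Delta-TRRAP. No library of one group came near the other group, and the mean fell 3.08-fold, from 10388 ± 325 to 3372 ± 147 (SD, n = 3). On the log2 scale it fell by 1.62 ± 0.05 (edgeR adjusted p = 8.63e-13).

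TSPAN32 (chromosome 11, 2301997 to 2318204), a tetraspanin of blood cells in the imprinted region of the short arm, fell most among the called tetraspanins by fold. It had 149.6, 108.0 and 144.7 normalized counts in WT and 12.7, 9.55 and 28.5 in Delta-TRRAP. The Delta-TRRAP libraries differed among themselves, with replicate 3 highest, but all stayed below the WT libraries, 7.92-fold on average (fell by 3.00 ± 0.26 on the log2 scale, edgeR adjusted p = 6.04e-08).

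TSPAN9, TSPAN7 and TSPAN18 were called higher from low levels. TSPAN9 (chromosome 12, 3077355 to 3286564), present in platelets, had 63.5, 59.8 and 58.5 normalized counts in WT and 170.1, 185.3 and 147.9 in Delta-TRRAP (log2 1.47 ± 0.13, edgeR adjusted p = 1.06e-07). TSPAN7 (chromosome X, 38561542 to 38688920), an antigen of T cell leukaemia that also acts in neurons, had 18.4, 27.0 and 25.7 in WT and 54.7, 72.6 and 81.3 in Delta-TRRAP (log2 1.54 ± 0.22, edgeR adjusted p = 1.32e-05). In both the groups were separate. TSPAN18 (chromosome 11, 44726465 to 44932423), which binds the calcium channel ORAI1 in endothelium, had 1.02, 1.93 and 3.08 in WT and 14.7, 16.2 and 21.1 in Delta-TRRAP (log2 3.03 ± 0.46, edgeR adjusted p = 2.68e-05). This rests on 6 reads against 52, or 8.58 times as many after scaling, with a 95% exact interval of 3.69 to 24.4. The summed normalized counts of the 8 megakaryocyte markers lay between 727 and 791 in WT and between 177 and 216 in Delta-TRRAP, with GP1BA, GP9 and PF4 at 0 throughout. This drop came from ITGA2B alone (666 to 88.6), while ITGB3 (87.8 and 97.0) was not called, and PPBP (2 and 13 reads) and VWF (1 and 10 reads) were higher in Delta-TRRAP but below the minimum for testing.

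5 further members of this group were tested and not called. TSPAN3 (chromosome 15, 77041404 to 77083984) had 4247, 4283 and 4060 normalized counts in WT and 5208, 5262 and 5809 in Delta-TRRAP, with no overlap (log2 0.37 ± 0.05, edgeR adjusted p = 1.99e-05). TSPAN31, which lies beside CDK4 in a region amplified in sarcomas, rose from a mean of 516 to 971, just short of the fold threshold (log2 0.91 ± 0.07, edgeR adjusted p = 2.07e-08). TSPAN12, the Norrin co-receptor that enhances FZD4 signalling, rose from 80.7 to 121.6 (log2 0.60 ± 0.15, edgeR adjusted p = 0.00201). TSPAN4, known from migrasomes, fell from 495 to 333 (by 0.57 ± 0.09 on the log2 scale, edgeR adjusted p = 4.82e-05). TSPAN8 overlapped between the groups, at means of 6.35 and 9.65 (log2 0.59 ± 0.41, edgeR adjusted p = 0.217). TSPAN1, TSPAN2 and TSPAN11 had at most 7 reads in all, and TSPAN16 and TSPAN19 had none.

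**Figure D3:**
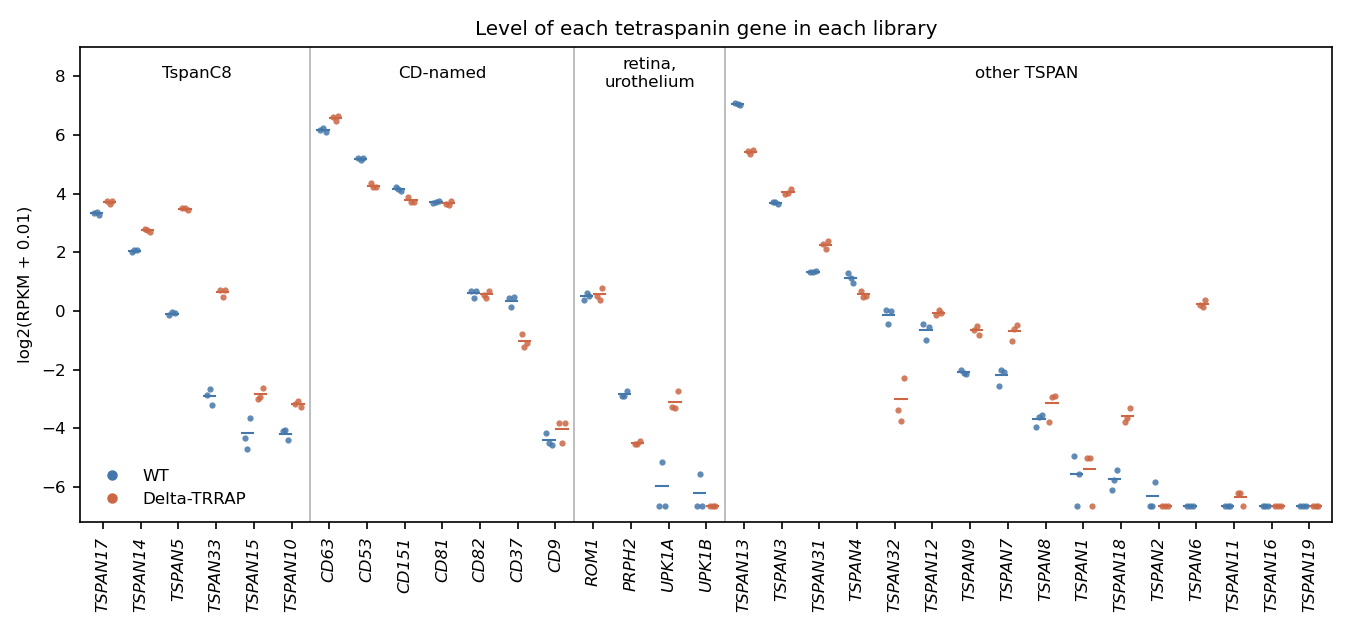
Level of each of the 33 tetraspanin genes in each library, as log2(RPKM + 0.01) (y axis), grouped by role and ordered by WT level; points are libraries and lines are group means. TSPAN6 sits at the bottom in WT and above 0 in Delta-TRRAP, and TSPAN13 goes from 133 to 43.2 RPKM.

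Ordered by RPKM, the WT libraries were led by TSPAN13 (133), CD63 (72.0), CD53 (36.4), CD151 (17.9), CD81 (13.1), TSPAN3 (12.8), TSPAN17 (10.04) and TSPAN14 (4.15). CD81 and TSPAN3 were the only neighbours in this leading run whose libraries overlapped. In Delta-TRRAP the order was CD63 (95.8), TSPAN13 (43.2), CD53 (19.2), TSPAN3 (16.6), CD151 (13.6), TSPAN17 (13.0), CD81 (12.7) and TSPAN5 (11.2). Here CD151, TSPAN17 and CD81 overlapped from one to the next. TSPAN5 thus moved from position 14 to 8, TSPAN33 from 20 to 11 and TSPAN6 from among the genes at 0 to 15. Over the whole order, 17 of 32 neighbouring pairs in WT and 18 in Delta-TRRAP did not separate. The order between genes depends on the length used. With the longest transcript in place of merged exons, TSPAN13 and CD63 stood at 143 and 141 RPKM in WT, and TSPAN5 (20.5) came above CD81 (19.4) in Delta-TRRAP.

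The summed level of the 33 genes was 312 ± 7.32 RPKM in WT and 247 ± 10.5 in Delta-TRRAP (log2 -0.33), while the summed normalized count, without length, was 38315 ± 669 and 38588 ± 1210 (log2 0.01). The direction of the total therefore rests on the length scaling. TSPAN13 made up 42.3 to 43.1% of the summed RPKM in WT and 17.4 to 17.6% in Delta-TRRAP. CD63 went from 22.6 to 23.8% up to 37.9 to 39.2%, and the TspanC8 genes together from 4.79 to 4.99% up to 12.8 to 13.7%. CD53 went from 11.2 to 12.2% down to 7.36 to 8.03%. With the longest transcript the same shares kept their directions, at 32.1% and 11.7% for TSPAN13, 31.8% and 47.4% for CD63, and 4.13% and 11.4% for the TspanC8 genes.

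**Figure D4:**
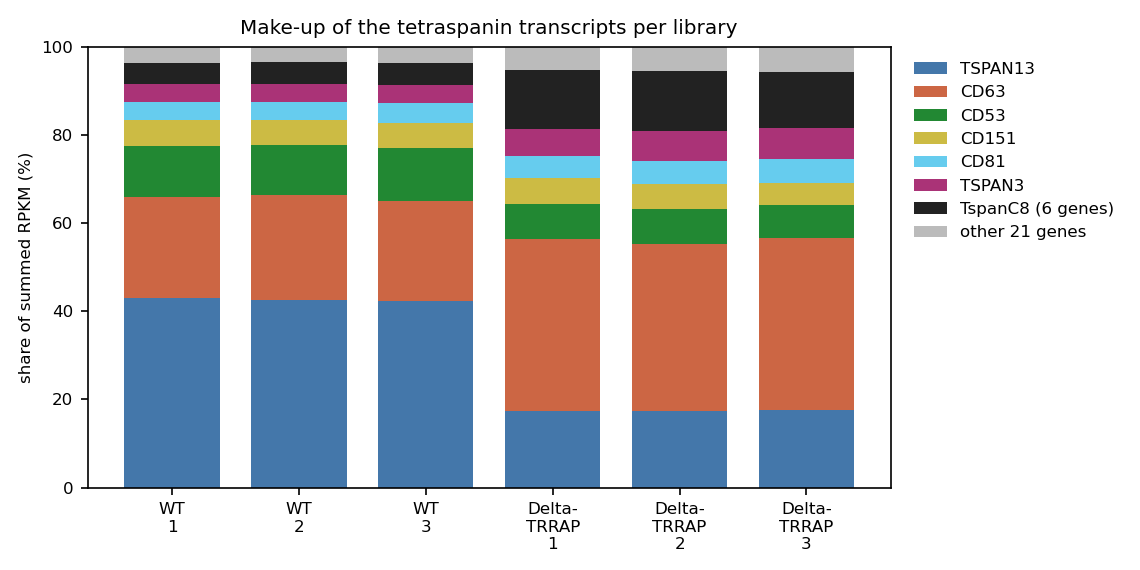
Share of the summed tetraspanin RPKM (%, y axis) taken by 6 genes, the TspanC8 group and the other 21 genes in each of the 6 libraries. TSPAN13 takes 42.3 to 43.1% of each WT bar and 17.4 to 17.6% of each Delta-TRRAP bar, and CD63 and the TspanC8 genes take larger shares in Delta-TRRAP.

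The genes beside the called tetraspanins were described from the same fit. Of the 24 nearest tested genes on either side of the 12 called members, 7 were called (29.2%, beside 22.5% of all genes), 6 of them in the direction of their tetraspanin. Among these 7, TNMD, SRPX2, AC114811.2, AHR and ASCL2 passed the minimum for testing only through the group in which they were high. Next to TSPAN6 on the X chromosome, TNMD, which encodes tenomodulin, had no read in WT and a mean of 213 in Delta-TRRAP, at least 71.0-fold. SRPX2, 4204 bases from TSPAN6 on its other side, had 1 WT read and 304 Delta-TRRAP reads, 301 times as many after scaling, with a 95% exact interval of 53.6 to 11928. TSPAN6 thus lay between 2 genes that, like it, had almost no read in WT and were called higher in Delta-TRRAP.

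Next to TSPAN32, the transcription factor gene ASCL2 had 84 reads in WT and 1 in Delta-TRRAP, 84.8-fold fewer with an interval of 14.8 to 3390. C11orf21, which overlaps TSPAN32 on the opposite strand, went from a mean of 297 to 24.3 normalized counts (fell by 3.59 ± 0.15 on the log2 scale), whereas the neighbour on the other side was not called. Counting used the strand, so reads of such pairs were kept apart as far as the library kit marks it. The transcript AC114811.2 starts 283 bases from the start of TSPAN5, on the other strand, and had 3 reads in WT and 93 in Delta-TRRAP (ratio 30.7, 95% exact interval 10.2 to 152). RAP1GDS1, on the far side of TSPAN5, was not called (fell by 0.27 on the log2 scale).

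TSPAN18 was flanked by PRDM11 (log2 2.33 ± 0.14) and overlapped by TP53I11 (2.25 ± 0.21), both called higher, while its other neighbour was CD82, which did not pass the test. TSPAN7 lay next to AF241728.1 (2.11 ± 0.15), and CD37 overlapped TEAD2 on the opposite strand (fell by 1.30 ± 0.06 on the log2 scale). The neighbours of TSPAN33, AC011005.1 (0.42) and AHCYL2 (-0.14), were not called. Beside TSPAN13, which fell, AHR, the aryl hydrocarbon receptor, was called higher (2.69 ± 0.65, from 4 reads against 28), and BZW2 on the other side was not called (fell by 0.65 on the log2 scale). Beside TSPAN9, which rose, the tested genes on either side and the one that overlaps it had log2 fold changes of -1.06, -0.50 and -0.91, and none was called.

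**Figure D5:**
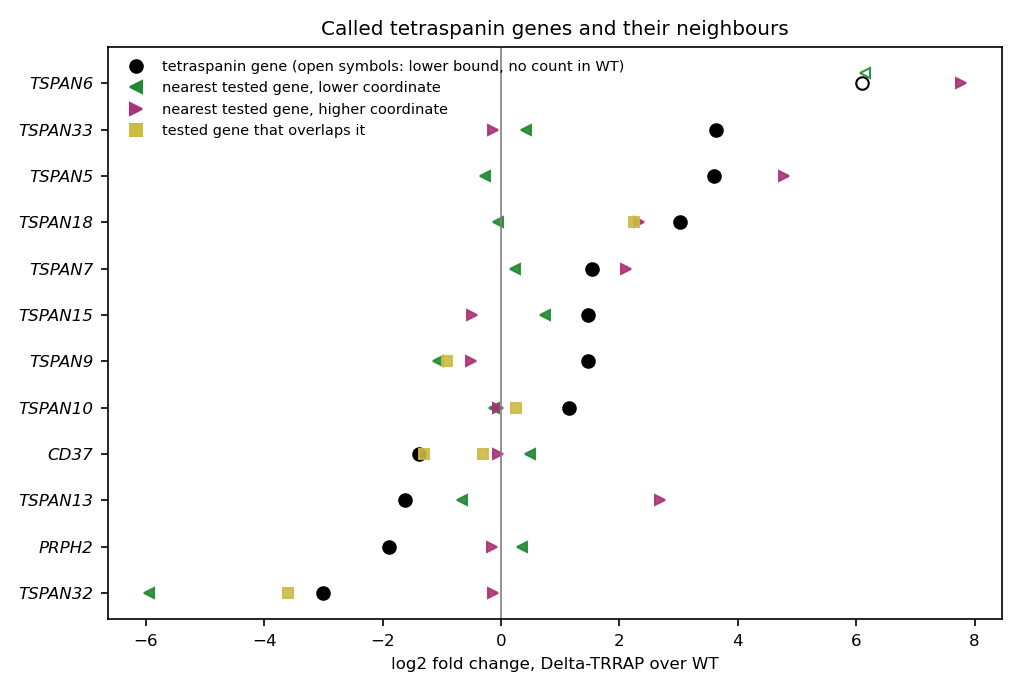
Log2 fold change (x axis) of the 12 called tetraspanin genes, of the nearest tested gene on each side and of tested genes that overlap them; open symbols are lower bounds for genes with no count in WT. At least 1 neighbour of TSPAN6, TSPAN5, TSPAN18, TSPAN7 and TSPAN32 lies at least 2.11 from 0 on the side of the tetraspanin, and the neighbour of TSPAN13 at 2.69 lies on the other side.

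The proteins that tetraspanins bind were read from a list of 31 genes, of which 28 were tested. 3 of the 28 were called higher (beside 16.2% of all genes) and 6 lower (beside 6.34%). By adjusted p alone 7 were higher and 15 lower, or 22 of 28, beside 58.6% of all genes. The median log2 fold change of the list was -0.33. The 3 that rose were alpha chains of laminin-binding integrins, the class that CD151 holds, namely ITGA3 (5.09 to 46.7 normalized counts, log2 3.19 ± 0.34), ITGA6 (11.1 to 59.8, 2.42 ± 0.24) and ITGA7 (16.0 to 54.3, 1.75 ± 0.21). Their shared beta chain ITGB1 fell by 0.54 ± 0.06 on the log2 scale, below the fold threshold. The platelet integrin chain ITGA2B fell from 666 to 88.6 (by 2.91 ± 0.10 on the log2 scale).

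Of the immunoglobulin-domain partners of CD9 and CD81, PTGFRN went from 4059 to 1587, IGSF3 from 4750 to 1350 and CD101 from 32.1 to 10.9, all called lower. IGSF8, of the same family, went from 281 to 219 and was not called. EPCAM, an adhesion protein of tetraspanin complexes, went from 7054 to 2379, and the stem cell factor receptor KIT from 226 to 80.2, both called lower. FZD4, the receptor that TSPAN12 serves, went from 1097 to 703 and was not called. The L6 proteins, which also cross the membrane 4 times but are a separate family, had 2 of 6 genes tested. TM4SF1 was called higher (4.69 to 39.5, log2 3.04 ± 0.32), but it passed the minimum for testing only through Delta-TRRAP. TM4SF19 was not called (log2 0.25, edgeR adjusted p = 0.103).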

How the data were processed

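The authors aligned reads to hg38 with STAR, kept uniquely mapping reads and counted them per gene with HTSeq 2.0.2 (reverse-stranded, union mode, GENCODE 32). The deposited values used here are these raw counts, and discarding multimapping reads lowers near-identical copies. A deposited table of size-factor-scaled counts, which also has 3 columns of other samples, and the authors' table of fold changes and p-values (DESeq2) were not used. Groups came from sample titles. Counts were tested with edgeR 4.0.16 (R 4.3.3; TMM, quasi-likelihood F test, group only) on the 19114 of 34998 detected genes whose normalized counts averaged 5 or more, with Benjamini-Hochberg adjustment. The thresholds follow the study, which used DESeq2. Standard errors were derived from the log2 fold change and F. The scripts were tested on simulated data. Alternatives used DESeq2 1.42.0, limma 3.58.1 (voom), other scalings, filters and fold thresholds, the longest transcript (added after seeing the data), and each library left out. Gene positions and exon lengths came from GENCODE 44 and promoters from RefSeq (25 of 33 symbols matched). All members were accounted for, and those called or with a mean of at least 1000 are given per library. The members and lists were chosen with earlier results of these data known. Floors and intervals cover counting error only, since no molecular identifiers are described. Replicates differed by more than sampling noise (chi-square per degree of freedom 5.43 to 17.5).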

Additional observations from a re-analysis of the deposited data

How the results depend on the processing

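Over 13 alternatives for the 26 tested members, 317 of 331 values kept their direction and side of the threshold, 8 lost the call, 1 gained it and 5 changed sign, and 20 members kept both throughout. TSPAN5, TSPAN33, TSPAN6, TSPAN13, TSPAN32, CD37, TSPAN9, TSPAN7, TSPAN18 and PRPH2 were called in each alternative that tested them. DESeq2 called 10 members and 3983 genes. Scaling by library size called 13 members, adding TSPAN31 (1.07), and turned CD81 (0.11) and CD82 (0.11). No filter called 13 members, adding UPK1A. A minimum mean count of 50, which tests fewer genes, called 7 members (4 higher), 1969 genes (1147 higher), 5 binding partners and 0 L6 genes. A fold threshold of 1.5 called 6802 genes (2722 lower). With no fold threshold, 21 members (14 higher, 7 lower), 11195 genes (5663 higher, 5532 lower) and 22 partners were called.

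Leaving out each library in turn gave 11 called members each time and 4029 to 4287 genes: TSPAN10 was lost without Delta-TRRAP replicate 1 or 2 or WT replicate 3, and TSPAN15 without Delta-TRRAP replicate 3 or WT replicate 1 or 2. The sign turned for CD82 without Delta-TRRAP replicate 2 (0.0093, range from -0.128) and for ROM1 without WT replicate 1 (-0.029) or Delta-TRRAP replicate 3 (-0.075, range up to 0.14). The log2 difference of the summed family level was -0.16 with the longest transcript, 0.0102 with no length scaling and -0.18 with library size, and -0.354 to -0.299 with a library left out. The cause of these shifts was not tested.

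Replicate numbers gave no sign of pairing (correlations of deviations -0.0095, -0.029 and -0.019). With the replicate block 12 members and 4218 genes were called. Depth limits TSPAN15, TSPAN10, TSPAN18 and PRPH2, which rest on fewer than 100 reads each, and TSPAN1, TSPAN2, TSPAN11 and UPK1B had too few reads for a change to be detectable at this depth.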
